A study of Saccharomyces cerevisiae with 6 samples.

Results

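The 7 genes described here encode the regulators of nitrogen catabolite repression in Saccharomyces cerevisiae: the GATA activators GLN3 and GAT1, the GATA repressors DAL80 and GZF3, the cytoplasmic anchor URE2, and the pathway activators DAL81 and DAL82. They were chosen by gene symbol, and each was measured by 1 probe set designed for 1 gene, among 5449 genes tested. Expression was measured on 6 Affymetrix arrays, 2 in each of 3 groups. All cells are labelled BY4741, a haploid laboratory strain, grown in YPD (a rich medium) and exposed for 3 hours to 1% DMSO, to 200 nM rapamycin or to CID 3528206, a small molecule given only by this code, at 20 µM. The labels do not state whether DMSO was also in the rapamycin and compound cultures, and the 2 agents were used at different concentrations. They speak of duplicates without naming separate cultures, and the p-values then measure only how far these arrays spread, which may be technical.

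When a good nitrogen source such as glutamine is present, yeast keeps off the genes for taking up and breaking down poorer sources. Gln3 and Gat1 are zinc finger proteins that bind GATA sequences in the promoters of those genes and switch them on. In good nitrogen they are held in the cytoplasm, Gln3 with Ure2, under the control of TOR complex 1, the kinase complex that rapamycin inhibits. Dal80 and Gzf3 bind similar GATA sequences and repress, and the genes GAT1, DAL80 and GZF3 are themselves controlled through GATA sites. Dal81 and Dal82 act further along, on genes that also need an inducer such as allophanate, a breakdown product of allantoin.

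All levels below are log2 RMA values, so that a difference of 1 is 2-fold, and levels of different genes cannot be compared because each has its own probes. Each array had a median over the genes tested of 10.08 to 10.11. Background was read from 1746 probe sets for another yeast, Schizosaccharomyces pombe, whose 99th percentile lay between 4.93 and 5.24. CID 3528206 replicate 1 stood apart: in 7 control genes the 3' probe sets exceeded the 5' probe sets by 1.69 log2 units on average, against 0.91 to 1.14 in the other arrays. Over all genes, replicates differed with a standard deviation of 0.27 log2 units for CID 3528206 and 0.12 for both DMSO and rapamycin. The arrays also went against the strain label in all groups, each gene being read only against the background. LEU2, MET17 and URA3, deleted in BY4741, and HIS3, deleted only in part, lay above it in all arrays, with levels from 10.39 to 12.11. So did the 6 measured genes of alpha cells, with 8.59 to 13.47, although BY4741 is an a strain. Of 7 genes specific to a cells, with 4.89 to 8.24, 1 fell under the percentile in an array. The strain is therefore given only as labelled. These genes moved with treatment, by the call defined in the next paragraph. Of the 7 a cell genes 4 rose after rapamycin and 5 after the compound, against 26.5% and 26.1% of all genes. In the same order 4 and 6 of the 6 alpha cell genes fell. Of the 4 genes deleted in full or in part 3 and 4 fell. Over all genes 26.2% fell after rapamycin and 24.4% after the compound. The log2 of the summed level was 9.45 to 9.48 after DMSO, 10.10 to 10.25 after rapamycin and 9.91 to 10.07 after the compound for a cell genes. For alpha cell genes it was 15.04 to 15.15, 14.44 to 14.54 and 14.32 to 14.34. For the 4 genes deleted in full or in part it was 13.85 to 13.91, 13.13 to 13.20 and 13.22 to 13.29. The part of these shifts in the results below was not tested. RNA came from whole cultures, in which a change in a fraction of the cells and a change in every cell cannot be told apart.

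Differences were tested with limma across all 5449 genes, and a gene counted as called at a Benjamini-Hochberg adjusted p under 0.05. The error given with ± is the standard error of a log2 difference, with n = 2 arrays per group. After rapamycin 6 of the 7 genes rose, where 26.5% of all genes tested rose, 26.2% fell and 52.7% were called in either direction. After CID 3528206 5 of the 7 rose, where 26.1% of all genes rose, 24.4% fell and 50.5% were called in either direction. At least 2-fold rises were called for the same 3 genes after either agent, DAL80, GAT1 and GZF3, against 5.98% of all genes after rapamycin and 5.01% after the compound. None of the 7 fell after either agent, and URE2 was called in neither comparison. The count was 4 to 6 for rapamycin and 4 to 6 for the compound when any single array was left out. The median log2 difference of the 7 genes was 0.82 after rapamycin and 0.75 after the compound, where the median of all genes was -0.020 and -0.0054.

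**Figure D1:**
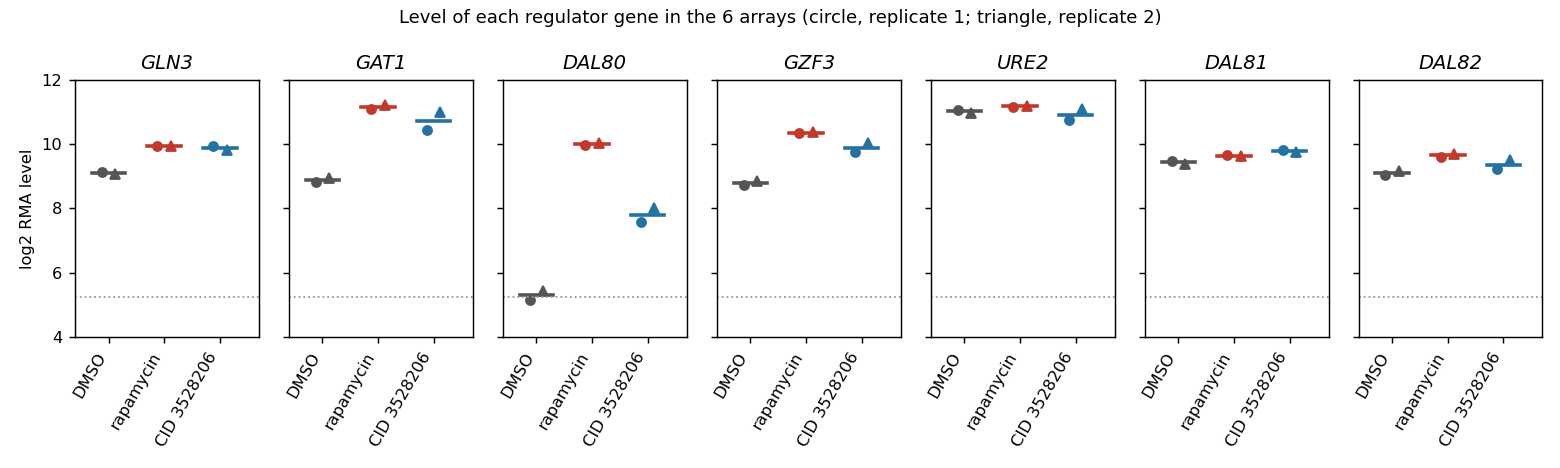
Log2 RMA level (vertical axis) of the 7 regulator genes in the DMSO, rapamycin and CID 3528206 arrays; circles are replicate 1, triangles replicate 2, bars the mean of both, and the dotted line the highest of the background percentiles (5.24). DAL80 lay near the background after DMSO, at 9.96 and 10.02 after rapamycin and at 7.58 and 8.02 after the compound, while URE2 lay between 10.75 and 11.19 in all arrays; heights are not comparable between genes.

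GLN3 encodes the activator that TOR complex 1 and Ure2 restrain. Its level was 9.15 and 9.08 in the DMSO arrays, 9.95 and 9.93 after rapamycin, and 9.93 and 9.81 after CID 3528206. Both groups of treated arrays lay above both DMSO arrays. GLN3 rose 1.77-fold after rapamycin (log2 difference 0.82 ± 0.07, limma adjusted p = 0.000335). It rose 1.68-fold after the compound (0.75 ± 0.07, limma adjusted p = 0.000602). The levels after the agents overlapped, and the compound differed from rapamycin by -0.07 (95% confidence interval -0.25 to 0.11, limma adjusted p = 0.511).

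GAT1 encodes the other activator. Its level was 8.83 and 8.95 after DMSO, 11.10 and 11.20 after rapamycin, and 10.45 and 11.00 after the compound. The replicates after the compound were 0.54 log2 units apart, the widest gap of any of the 7 genes in any group, and the lower value came from the array that stood apart in the control probe sets. GAT1 rose 4.81-fold after rapamycin (2.27 ± 0.17, limma adjusted p = 0.000196), a rank of 59 among the rises of 5449 genes. It rose 3.57-fold after CID 3528206 (1.84 ± 0.17, limma adjusted p = 0.000546), a rank of 66. All arrays of the 3 groups were separate, in the order DMSO, compound, rapamycin. The step from rapamycin to the compound, -0.43 (interval -0.85 to -0.01), did not pass over all genes (limma adjusted p = 0.13). Without CID 3528206 replicate 2 that step was -0.70 and passed (limma adjusted p = 0.00225), and without replicate 1 it was -0.16. With the 3' to 5' difference of the control probe sets as a covariate it was -0.20 (limma adjusted p = 0.0303).

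URE2 encodes the protein that holds Gln3 in the cytoplasm, and which can also form a prion. Its level was 11.05 and 10.98 after DMSO, 11.15 and 11.19 after rapamycin, and 10.75 and 11.08 after the compound. The rapamycin arrays lay just above the DMSO arrays, and the compound arrays on either side of the DMSO arrays. The arrays of rapamycin and DMSO were separate for 7 of the 7 genes, against 84.9% of all genes, and those of the compound and DMSO for 6 of the 7, against 75.8%. URE2 differed from DMSO by 0.15 ± 0.11 after rapamycin (interval -0.13 to 0.43, limma adjusted p = 0.298). It differed by -0.10 ± 0.11 after the compound (interval -0.38 to 0.18, limma adjusted p = 0.496). The sign of the latter rested on 1 array: the difference was 0.06 without CID 3528206 replicate 1, and -0.26 with a call (limma adjusted p = 0.0175) without replicate 2. With the control probe set covariate it was 0.06, and the rapamycin difference, at 0.19, passed (limma adjusted p = 0.0401).

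DAL80 encodes a GATA repressor of nitrogen genes and gave the largest differences of the 7. Its level was 5.16 and 5.43 after DMSO, 9.96 and 10.02 after rapamycin, and 7.58 and 8.02 after CID 3528206. It was above the background percentile of its own array in 1 of the 2 DMSO arrays, so the fold changes and ranks against DMSO start from a level close to the background and carry its uncertainty. The fitted rise of DAL80 after rapamycin was 25.9-fold (4.70 ± 0.16, limma adjusted p = 1.46e-05), a rank of 6 among all rises. It rose 5.67-fold after the compound (2.50 ± 0.16, limma adjusted p = 0.000146), a rank of 27. The lowest rapamycin array was 1.94 log2 units above the highest compound array, and the lowest compound array was 2.15 above the highest DMSO array. These gaps exceeded the widest replicate gap of the gene, 0.44 after the compound.

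GZF3 encodes the other GATA repressor. Its level was 8.73 and 8.84 after DMSO, 10.34 and 10.37 after rapamycin, and 9.76 and 10.03 after the compound. As for GAT1, the groups were separate and the compound arrays lay between the others. GZF3 rose 2.98-fold after rapamycin (1.57 ± 0.10, limma adjusted p = 0.000112), with a rank of 149. It rose 2.16-fold after the compound (1.11 ± 0.10, limma adjusted p = 0.000542), with a rank of 221.

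DAL81 encodes an activator used by several inducible pathways, among them those for GABA, allophanate and external amino acids. Its level was 9.46 and 9.39 after DMSO, 9.65 and 9.63 after rapamycin, and 9.81 and 9.74 after CID 3528206. It was the only one of the 7 for which both compound arrays lay above both rapamycin arrays. DAL81 rose by 0.21 ± 0.07 after rapamycin (limma adjusted p = 0.0422) and by 0.35 ± 0.07 after the compound (limma adjusted p = 0.00725). The call after rapamycin was lost on leaving out any one DMSO or rapamycin array. It was also lost when the tested genes were quantile normalized (limma adjusted p = 0.0789) and after centring each array on its median (limma adjusted p = 0.055). The same held over all probe sets, with a trend and robust variance in limma, and at an adjusted p under 0.01. The call after the compound ended without DMSO replicate 2. The step from rapamycin to the compound was 0.14 ± 0.07 and did not pass (interval -0.02 to 0.31, limma adjusted p = 0.182).

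DAL82 encodes an activator specific to allophanate-induced genes. Its level was 9.05 and 9.15 after DMSO, 9.59 and 9.71 after rapamycin, and 9.23 and 9.49 after the compound. The 3 groups were separate in the same order as for GAT1 and GZF3. DAL82 rose by 0.55 ± 0.11 after rapamycin (limma adjusted p = 0.00683), a call that ended without DMSO replicate 1 (0.0508) or rapamycin replicate 2 (0.0523). After the compound the difference was 0.26 ± 0.11 (interval 0.00083 to 0.52) and did not pass (limma adjusted p = 0.0862). It passed without CID 3528206 replicate 1, at 0.40 (limma adjusted p = 0.00802), with the control probe set covariate, at 0.42 (limma adjusted p = 0.00207), and with the replicate number as a block (limma adjusted p = 0.0267).

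In the direct comparison of CID 3528206 with rapamycin DAL80 differed most. Its level was 4.57-fold lower after the compound (-2.19 ± 0.16, limma adjusted p = 0.00259), the largest drop of all 5449 genes in this comparison. The next genes were RGI2 (-2.06 ± 0.21) and the stress protein gene HSP12 (-1.91 ± 0.22). DAL80 kept this rank without each array in turn except CID 3528206 replicate 2, where its rank was 2. Its difference ranged from -2.41 to -1.97 over the alternatives that tested it, with a limma adjusted p of 0.000477 to 0.0301. GZF3 was also lower after the compound, 1.38-fold (-0.47 ± 0.10, limma adjusted p = 0.0316). That call was lost on leaving out any one DMSO or rapamycin array (limma adjusted p 0.0704 to 0.184).

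In all, 2 of the 7 regulators, both repressors, were lower after the compound than after rapamycin, where 9.43% of all genes were lower, 9.32% higher and 18.8% called in either direction, and none was higher. The arrays of the compound and rapamycin did not overlap for 6 of the 7, against 63.5% of all genes. DAL80 alone passed 2-fold, as did 0.697% of all genes. The other 5 had differences from -0.43 to 0.14 and did not pass. With the replicate number as a block 4 of the 7 passed, GAT1 (limma adjusted p = 0.0493) and DAL82 (0.039) being added. The count was 1 without any single DMSO or rapamycin array, where DAL80 alone passed, 2 without CID 3528206 replicate 1, and 5 without CID 3528206 replicate 2, when GAT1, URE2 and DAL82 passed as well. The number of all genes called in this comparison moved with the same arrays, from 1022 to between 96 and 2646. Both comparisons with DMSO share the DMSO arrays, and the direct comparison does not use their level.

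**Figure D2:**
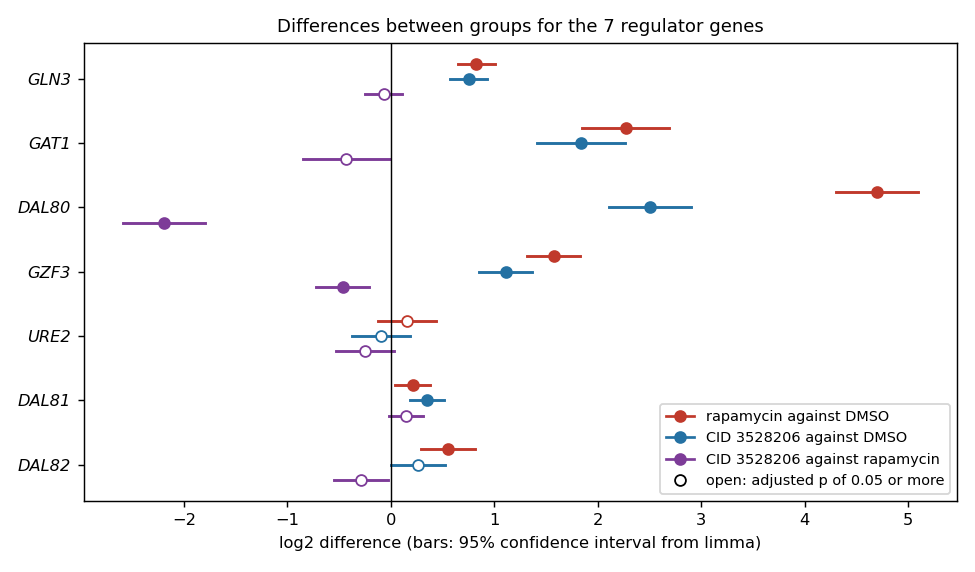
Log2 difference (horizontal axis) of the 7 regulator genes for rapamycin against DMSO, CID 3528206 against DMSO and CID 3528206 against rapamycin; bars are 95% confidence intervals from limma, and open symbols did not pass an adjusted p of 0.05. DAL80 lies apart from the others, at 4.70, 2.50 and -2.19, while for GLN3 the values after both agents, 0.82 and 0.75, have overlapping intervals.

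Yeast has further genes for GATA-type zinc fingers outside nitrogen control, and these moved in both directions. Of 6 measured, 4 rose and 1 fell after rapamycin, and 3 rose and 2 fell after CID 3528206, where 52.7% and 50.5% of all genes were called. GAT2 fell by 0.88 after rapamycin (-0.88 ± 0.10) and by 1.43 after the compound (-1.43 ± 0.10, limma adjusted p = 0.000157). ASH1, a repressor of mating type switching in daughter cells, rose by 0.66 ± 0.06 after rapamycin and by 0.30 ± 0.06 after the compound, the latter not without either DMSO array. SRD1 rose by 0.42 ± 0.07 after rapamycin and fell by 0.23 after the compound (-0.23 ± 0.07, limma adjusted p = 0.0371). ECM23, between 3.91 and 4.42, and GAT3, between 2.96 and 3.43, lay below the background percentile in all arrays. GAT4, between 5.06 and 5.80, was under the percentile of its own array in DMSO replicate 1. ECM23 and GAT4 are among the rises after both agents, so those counts include genes at or near the background. The rise of GAT4 after rapamycin, 0.36, ranged from 0.05 to 0.44 over the alternatives. Without DMSO replicate 1 the compound gave 0 rises and 1 fall, and without DMSO replicate 2 it gave 1 and 1. With the tested genes quantile normalized, 2 rather than 4 rose after rapamycin, since ECM23 and GAT4 no longer passed. The fall of SRD1 after the compound was lost on leaving out any one DMSO or rapamycin array (limma adjusted p 0.0839 to 0.245). Against rapamycin GAT2, SRD1 and ASH1 were lower after the compound, calls that ended without either rapamycin array and, for ASH1, without either DMSO array.

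Genes that Gln3 and Gat1 activate without a pathway inducer also rose after both agents. All 8 measured rose after rapamycin, against 26.5% of all genes, with a median log2 difference of 3.71. Of them 7 rose at least 2-fold, against 5.98% of all genes. After CID 3528206 7 of the 8 rose, each at least 2-fold, and the median of the 8 was 2.57. Over all genes 26.1% rose after the compound, and 5.01% rose at least 2-fold. The ammonium permease gene MEP2 rose by 5.68 ± 0.07 and 5.34 ± 0.07. MEP1 and MEP3, of the same family, rose by 2.97 and 1.08 after rapamycin and by 2.63 and 1.31 after the compound. The general amino acid permease gene GAP1 rose by 5.10 ± 0.08 and 3.90 ± 0.08. DAL3, for an enzyme of allantoin breakdown, rose by 5.15 ± 0.08 and 4.42 ± 0.08. The allantoate permease gene DAL5 rose by 3.90 and 2.50, and the proline permease gene PUT4 by 3.52 and 2.25. The glutamine synthetase gene GLN1 rose by 0.26 ± 0.06 after rapamycin (limma adjusted p = 0.0153), which was lost on leaving out any one DMSO or rapamycin array, and differed by 0.11 ± 0.06 after the compound.

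For 6 of these 8 targets the level was lower after the compound than after rapamycin, against 9.43% of all genes. GAP1 was lower by -1.20, DAL5 by -1.40 and PUT4 by -1.27 log2 units, and these 3 calls held without each array in turn (limma adjusted p in the fit of all arrays 0.00256 to 0.00259). The steps were -0.73 for DAL3 and -0.34 for both MEP1 and MEP2. Those calls ended without either rapamycin array, and those of MEP1 and MEP2 also without either DMSO array, with limma adjusted p up to 0.207. MEP3 differed by 0.23 ± 0.09 and did not pass (limma adjusted p = 0.11), but passed without CID 3528206 replicate 2.

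**Figure D3:**
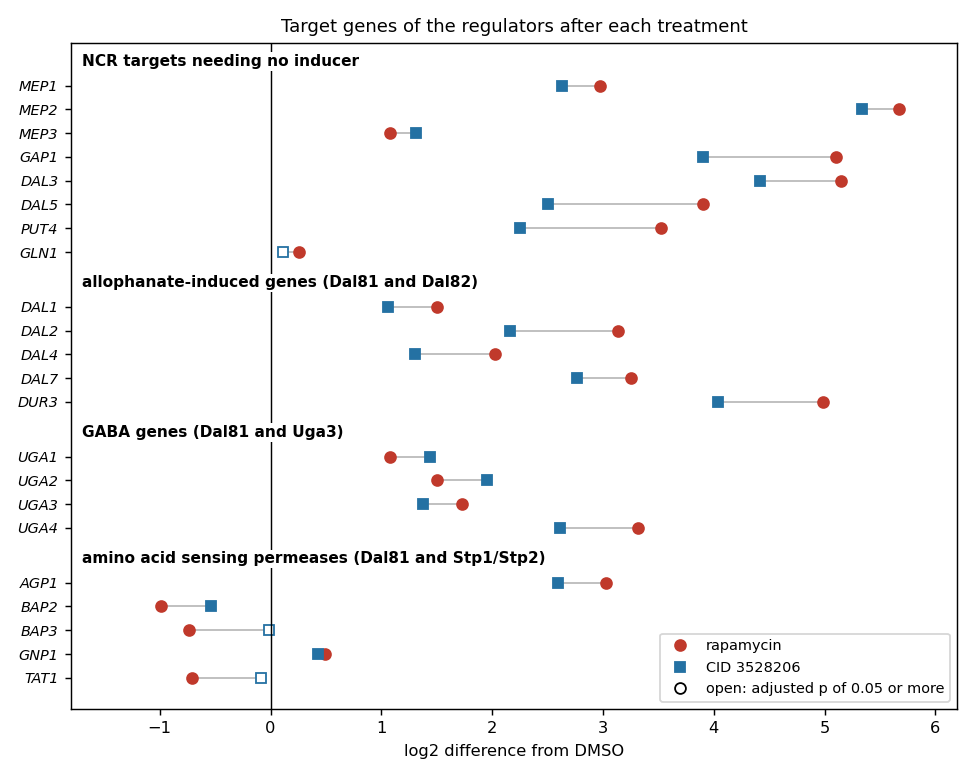
Log2 difference from DMSO (horizontal axis) of 22 genes after rapamycin (circles) and CID 3528206 (squares). Target genes are grouped by the regulators they need, and UGA3, which encodes an activator, is shown with the GABA genes. Open symbols did not pass an adjusted p of 0.05. Rapamycin lies to the right of the compound for most genes that rose, up to 5.68 for MEP2, and to the left of it for MEP3, UGA1 and UGA2, while BAP2, BAP3 and TAT1 lie below 0 after rapamycin.

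Allophanate-induced genes, which need Dal81 and Dal82 as well as the GATA activators, rose too. All 5 measured rose at least 2-fold after both agents, as did 5.98% of all genes after rapamycin and 5.01% after the compound, with a median log2 difference of 3.13 after rapamycin and 2.16 after CID 3528206. The urea transporter gene DUR3 rose by 4.98 ± 0.13 and 4.04 ± 0.13. DAL7, for malate synthase, rose by 3.25 and 2.77, and DAL2, for allantoicase, by 3.13 and 2.16. The allantoin permease gene DAL4 rose by 2.03 and 1.30, and DAL1, for allantoinase, by 1.50 and 1.06. After the compound 4 of the 5, against 9.43% of all genes, were lower than after rapamycin, by 0.48 to 0.97 log2 units in size. The call for DAL2 (-0.97 ± 0.07, limma adjusted p = 0.00259) held without each array in turn, while those for DUR3, DAL4 and DAL7 ended without either rapamycin array (limma adjusted p 0.0605 to 0.149). DAL1 differed by -0.44 ± 0.13 and passed only without CID 3528206 replicate 2 among the arrays left out.

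The GABA genes, UGA3 for an activator and the genes that use Uga3 together with Dal81, rose as well, but differed in which agent gave the higher level. All 4 rose at least 2-fold after both agents, against 5.98% of all genes after rapamycin and 5.01% after the compound. The GABA permease gene UGA4 rose by 3.31 ± 0.08 after rapamycin and 2.62 ± 0.08 after the compound, and UGA3 itself by 1.73 and 1.37. The enzymes of GABA breakdown went the other way: UGA1, the transaminase gene, rose by 1.08 ± 0.07 and 1.44 ± 0.07, and UGA2, the succinate semialdehyde dehydrogenase gene, by 1.50 ± 0.09 and 1.95 ± 0.09. Both compound arrays lay above both rapamycin arrays for UGA1 and UGA2. The steps between the agents passed for UGA1 (0.36, limma adjusted p = 0.0229), UGA2 (0.45, limma adjusted p = 0.0223) and UGA4 (-0.70, limma adjusted p = 0.00556). Over all genes tested 18.8% were called in this comparison. UGA3 differed by -0.35 ± 0.10 and passed only without CID 3528206 replicate 2 among the arrays left out. The other 3 calls ended without either rapamycin array, and those for UGA1 and UGA2 without either DMSO array too, with limma adjusted p up to 0.169.

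Permease genes that use Dal81 with Stp1 and Stp2, the factors of the external amino acid sensor, split in direction after rapamycin. AGP1, a broad permease that GATA factors also control, rose by 3.03 ± 0.06 after rapamycin and 2.60 ± 0.06 after CID 3528206. GNP1 rose by 0.49 ± 0.08 and 0.43 ± 0.08, the latter not without DMSO replicate 2 (limma adjusted p = 0.0583). BAP2, BAP3 and TAT1, for uptake of branched-chain and aromatic amino acids, fell by 0.99, 0.74 and 0.71 after rapamycin. After the compound BAP2 fell by 0.54 (limma adjusted p = 0.00261), while BAP3 and TAT1 differed by -0.02 and -0.09 and did not pass. Against rapamycin BAP3 was higher after the compound by 0.72, TAT1 by 0.62 and BAP2 by 0.46, and AGP1 lower (-0.43). These 4 calls ended without either rapamycin array (limma adjusted p 0.0533 to 0.13), and that of BAP2 also without either DMSO array. In the sensor pathway itself 3 of 5 genes rose after both agents, against 26.5% of all genes after rapamycin and 26.1% after the compound. In the order rapamycin and compound, STP2 rose by 1.61 and 1.31, PTR3 by 1.09 and 1.13, and STP1 by 0.79 and 0.77. SSY1 (-0.16 and -0.13) and SSY5 (0.18 and 0.05) did not pass in the fit of all arrays. Between the agents limma called 0 of the 5, where it called 18.8% of all genes. At an unadjusted limma p under 0.05 there was 1 of the 5, STP2 (0.014), where 37.6% of all genes were, and STP2 was called without CID 3528206 replicate 2.

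Among genes for the use of proline and arginine 2 of 5 rose after rapamycin and 3 of 5 after the compound, and none fell. The shares called lie near those of all genes, 52.7% and 50.5%. The count after rapamycin was 1 without any single DMSO or rapamycin array and 3 without either compound array. The proline oxidase gene PUT1 rose by 2.19 ± 0.09 and 1.01 ± 0.09, and was lower after the compound than after rapamycin by -1.18, a call that held without each array in turn. PUT3 rose by 0.52 ± 0.15 after the compound (limma adjusted p = 0.0277), where its replicates were 0.44 log2 units apart. The counts of rises and falls after the compound also moved over the alternatives, and PUT3 was not followed through them on its own. After rapamycin PUT3 differed by 0.42 and did not pass. PUT2 (-0.22 and -0.19) and CAR1 (0.00042 and 0.28) passed after neither agent in the fit of all arrays. The ornithine transaminase gene CAR2 rose by 0.28 ± 0.08 and 0.85 ± 0.08. Its rise after rapamycin was lost on leaving out any one DMSO or rapamycin array (limma adjusted p 0.0542 to 0.155). It was higher after the compound than after rapamycin by 0.57, which ended without either rapamycin array.

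Upstream of the GATA factors, 7 of 17 genes for TOR complex subunits, protein phosphatases and their regulators rose after rapamycin, 1 fell and 9 did not pass. After CID 3528206 6 rose, 2 fell and 9 did not pass. These counts are near the background, since 52.7% and 50.5% of all genes were called. The largest rise was that of NPR1, a kinase that regulates permeases, by 1.55 ± 0.08 and 1.12 ± 0.08. PPH3, a phosphatase that acts on Gln3 in yeast, rose by 1.11 ± 0.14 and 0.61 ± 0.14, the latter not without DMSO replicate 1. LST8, a subunit of both TOR complexes, rose by 0.97 ± 0.12 and 0.68 ± 0.12. The genes that fell, named after their values were seen, were CDC55 after both agents, by 0.22 and 0.42, and PPH21 after the compound, by 0.28. The fall of CDC55 after rapamycin was lost on leaving out any one DMSO or rapamycin array (limma adjusted p 0.113 to 0.21). That of PPH21 was lost on leaving out any one DMSO or rapamycin array and without CID 3528206 replicate 2 (limma adjusted p 0.0658 to 0.17). After rapamycin the count of rises was 4 without DMSO replicate 2 and 11 without either compound array. Falls after the compound numbered 1 without any single DMSO or rapamycin array and 4 without CID 3528206 replicate 1. Against rapamycin only NPR1 was called, lower by -0.43 after the compound, where 18.8% of all genes were called and 9.43% were lower. That call was lost on leaving out any one DMSO or rapamycin array, and the count rose on leaving out either compound array.

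The genes most like DAL80, GAT1 and GZF3 were found by the smallest root mean square distance between profiles over the 6 arrays, each profile taken from its own DMSO mean. For DAL80 they were ADY2 (distance 0.29 log2 units), an acetate transporter gene, DAL5 (0.52), YKR075C (0.66) and the mitochondrial pyruvate carrier gene MPC3 (0.68). ADY2 rose by 4.36 after rapamycin and 2.83 after the compound, beside 4.70 and 2.50 for DAL80. For GAT1 they were BSC4 (0.12), GPG1 (0.14), ACH1 (0.15) and the peroxisomal thiolase gene POT1 (0.15). For GZF3 they were DAL1 (0.08), PRY1 (0.09), AGX1 (0.09) and YPL229W (0.10). All profiles come from the same 6 arrays, and the distances are descriptions. DAL5 and DAL1, the nearest genes that are also in the target lists, belong to allantoin use.

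**Figure D4:**
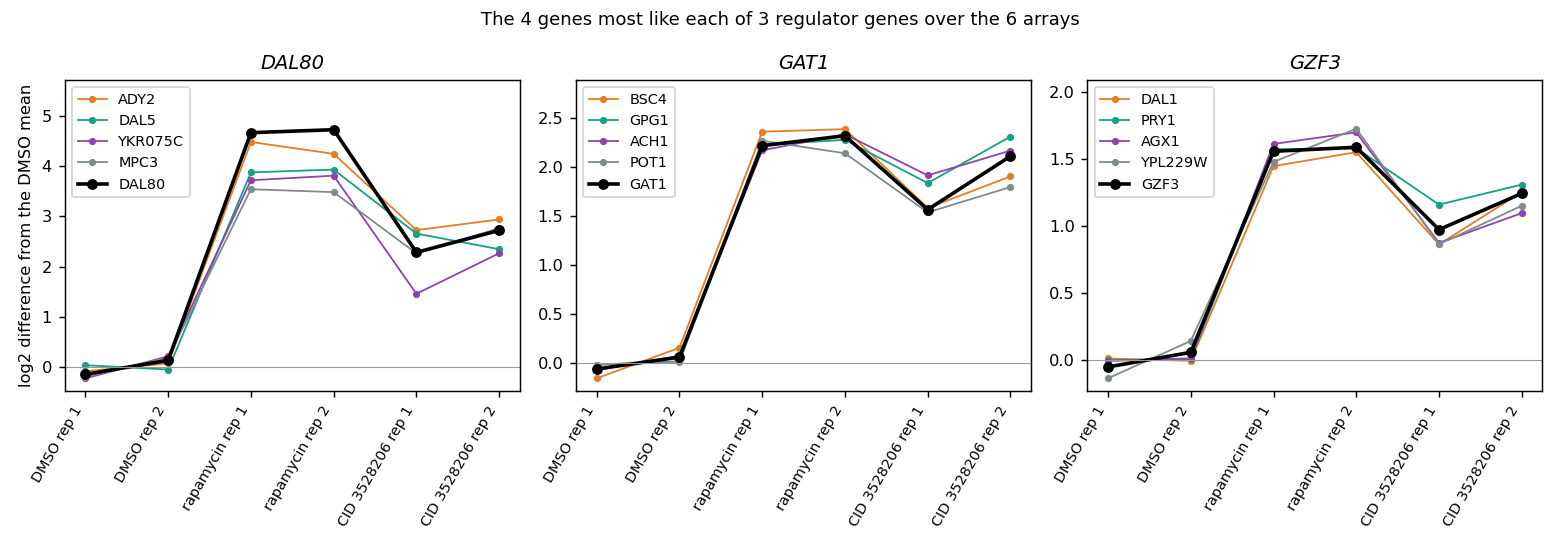
Log2 difference from the DMSO mean (vertical axis) in each of the 6 arrays for DAL80, GAT1 and GZF3 (black) and the 4 genes nearest to each; lines only join the points of a gene. The nearest gene to DAL80 lies 0.29 log2 units away and the 4 nearest to GZF3 lie 0.08 to 0.10 away, and the vertical scales differ between panels.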

How the data were processed

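Expression was measured on 6 arrays with biotinylated cRNA made from 100 ng of total RNA, per the labels' protocols. The deposited log2 values, 1 for each probe set, come from RMA run by the authors, per the submitters' processing notes, which name no version or settings. RMA gives the arrays a common distribution, so all changes are relative to the other probe sets. The table held 10928 probe sets. Of these, 5498 named 1 S. cerevisiae gene through the platform annotation, with symbols updated through the annotation of assembly R64, and gave 5449 genes. The probe set with the highest mean was used for the 47 genes with several, none of them among the 7 regulators.

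limma 3.58.1 under R 4.3.3 was used for the fit (lmFit and eBayes), with a mean per group, 3 residual degrees of freedom and two-sided tests adjusted over all genes. The fit was tested on simulated data with independent noise of the same spread in every array. That test cannot speak for the wider spread of CID 3528206. With so few arrays precision is limited, and limma pools a spread that was wider for CID 3528206. Groups follow the sample titles. Named genes are the 7 regulators and the genes of fixed lists of up to 8 measured genes, without the a and alpha cell genes. From the longer list they are those past 2-fold and the 2 with the largest absolute difference in each comparison with DMSO. The 2 of that list that fell were named after their values were seen. Also named are the 4 genes most like each regulator that rose 2-fold after rapamycin, and RGI2 and HSP12 in the direct comparison. The regulators, lists and alternatives were chosen with earlier results of these data known. The alternatives were leaving out each array, 2 other normalizations, 2 filters on low values, 3 choices of probe sets, the 4 arrays of a comparison, 2 variance models, the replicate number as a block, an adjusted p under 0.01, and a control probe set covariate. The allophanate-induced gene DUR1,2 was not analysed here, and no sequences were used.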

Additional observations from a re-analysis of the deposited data

How the results depend on the processing

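Of 393 values of the 7 regulators under 19 alternatives, 361 kept their direction and their side of the threshold. Of the rest, 19 lost the call, 11 gained one and 2 turned direction. A regulator's direction could turn only on leaving out an array of the compared groups, with the 2 other normalizations or with the control probe set covariate. The other alternatives left its difference unchanged and could move only the call. For the other named genes put through the alternatives this was 1925 of 2088, with 135 lost, 25 gained and 3 turned. Not among them were GAT3, SSY1, SSY5, PUT2, PUT3, CAR1, RGI2, HSP12, the genes deleted in full or in part and those named only for likeness. The differences of DAL80, GAT1, GZF3 and GLN3 from DMSO kept direction and call without each array in turn. The 2 turns among the regulators were both of URE2 after CID 3528206, which ranged from -0.26 to 0.0632 without each array in turn and was 0.0551 with the control probe set covariate. BAP3 after the compound ranged from -0.10 to 0.0666, and STP1 for the compound against rapamycin from -0.0335 to 0.0069; none of these 3 differences was called in the fit of all arrays. Without each array in turn, 1794 to 3698 genes were called for rapamycin (2873 with all arrays), 1553 to 3552 for the compound (2752) and 96 to 2646 for the compound against rapamycin (1022). At an adjusted p under 0.01 these were 1872, 1706 and 214. For the compound against rapamycin, 409 genes were called over all probe sets, 397 from the 4 arrays of the comparison, 528 with array weights and 1888 with the covariate; the cause of the last 2 was not tested. Of the regulators, 1 to 5 were called in that comparison without each array in turn, against 2 with all arrays. The count was 1 over all probe sets, 1 from 4 arrays and 1 at an adjusted p under 0.01. With the replicate number as a block it was 4, since GAT1 (limma adjusted p = 0.0493) and DAL82 (0.039) passed, and DAL82 also passed after the compound (0.0267). The differences between replicates correlated across genes between groups at 0.25 to 0.43, but with 2 numbers the pairing is not established, and the labels do not give it. The stricter filter on low mean levels removed DAL80 and DAL82, so no count of regulators was made there. With 2 arrays a group, and DAL80 near the background in DMSO, precision is limited.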
